A study of Arabidopsis thaliana with 6 samples.

Results

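HPR and AT1G11860 are 2 nuclear genes of the photorespiratory pathway of Arabidopsis thaliana leaves. HPR (AT1G68010) encodes the peroxisomal hydroxypyruvate reductase, and AT1G11860 encodes the T subunit of the mitochondrial glycine decarboxylase. They were taken as the probe sets that the array annotation assigns to 1 gene only, that gene being HPR or AT1G11860. This gave 1 probe set for each gene, among 13513 probe sets of a single gene and 22746 probe sets other than controls. A further probe set, assigned to HPR together with another gene, was left out. RNA from rosette leaves was hybridised to 6 Affymetrix ATH1 arrays. The first group, 3 arrays, was the pho3 line, a T-DNA insertion line of the Feldmann collection in the Ws-2 background. The other 3 arrays were the wild-type accession Ws-2. All plants had 3 days at 4 °C, then 10 days on half-strength medium with 1% sucrose, then compost, at 23 °C and 60% humidity in days of 16 h light and 8 h dark, and were sampled at growth stage 6.0. From background knowledge pho3 is defective in SUC2, the carrier that loads sucrose into the phloem for export from the leaf. SUC2 has no named probe set here, so the labels were not checked against it.

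Photorespiration begins when rubisco takes up oxygen in place of carbon dioxide and makes 2-phosphoglycolate, which the leaf recycles through chloroplast, peroxisome and mitochondrion. In the mitochondrion glycine decarboxylase, built of P, H, T and L proteins, breaks glycine down, and the T protein passes its methylene carbon to tetrahydrofolate while ammonia is released. Serine made from that carbon returns to the peroxisome, where HPR reduces the hydroxypyruvate formed from it to glycerate. Glycerate kinase in the chloroplast then makes 3-phosphoglycerate for the Calvin cycle. The transcripts of these enzymes are abundant in green leaves, where they accompany those of photosynthesis.

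The arrays did not all group by their labels. Across 13983 tested probe sets, log2 signal differences had a spread (scaled median absolute deviation) of 0.27 to 0.31 between the array labelled Ws-2 replicate 1 and the pho3 arrays, and of 0.47 to 0.48 between it and the other Ws-2 arrays. The pho3 replicate 3 array was 0.43 to 0.44 from the other pho3 arrays and 0.35 to 0.37 from Ws-2 replicates 2 and 3. Ws-2 replicate 1 and pho3 replicate 3 were each the nearest array to the other, at 0.27. The results are therefore given with all 6 arrays, without Ws-2 replicate 1, and without both of these arrays. Median signal was 42.1 to 44.2 on the pho3 arrays and 40.4 to 43.6 on the Ws-2 arrays. The measured leaf markers, 4 of 23 listed light-reaction genes, read strongly on every array: the antenna genes LHCB4.1, LHCB4.2 and LHCB4.3 and the photosystem I gene PSAN lay between the 85.8th and 99.99th percentile of all probe sets. Among the markers of other cells, 2 of 5 guard cell genes and 1 of 5 root genes had a probe set of their own, and none of the epidermis, phloem, xylem, flower and seed lists did. The root marker EXPA7, an expansin of root hair cells, read 12.2 to 18.3 in pho3 and 6.06 to 38.0 in Ws-2, and was too dim for the test.

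HPR averaged lower in pho3 leaves, at 69.1% of the Ws-2 mean. Its signal was 1216, 1678 and 2256 on pho3 replicates 1, 2 and 3, compared with 2077, 2650 and 2730 for Ws-2 replicates 1, 2 and 3. The groups overlapped only because pho3 replicate 3 read above the array labelled Ws-2 replicate 1, and 8 of the 9 pairs of a pho3 and a Ws-2 array had the lower signal in pho3. Such pairs, here and below, share arrays and are not independent. The Calvin cycle genes RCA, SBPASE and PRK gave the same count, and its share over all probe sets was not computed. The mean was 1717 ± 521 in pho3 and 2485 ± 356 in Ws-2 (SD, n = 3 each). On the log2 scale the difference, pho3 minus Ws-2, was -0.57 (SE 0.23, 95% interval -1.12 to -0.016), with limma's adjusted p = 0.375. The unadjusted limma p was 0.0453, and 8.88% of the probe sets tested had a smaller one. The interval reached above 0 without the filter, without the trended prior, with median centring and with quantile normalization. The unadjusted limma p was then 0.0547 to 0.0679. HPR did not pass the test over all probe sets.

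AT1G11860 averaged lower as well, at 66.0% of the Ws-2 mean. Its signal was 722, 744 and 1499 on pho3 replicates 1, 2 and 3, compared with 1162, 1840 and 1490 for Ws-2 replicates 1, 2 and 3. Replicates 1 and 2 of pho3 lay far below every Ws-2 array, while pho3 replicate 3 read above 2 of the 3 Ws-2 arrays. The mean was 988 ± 443 in pho3 and 1497 ± 339 in Ws-2 (SD, n = 3 each), and 7 of 9 pairs were lower in pho3. The log2 difference was -0.66 (SE 0.32, 95% interval -1.41 to 0.087), with limma's adjusted p = 0.375. The unadjusted limma p was 0.0748, and 19.4% of the probe sets tested had a smaller one.

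**Figure D1:**
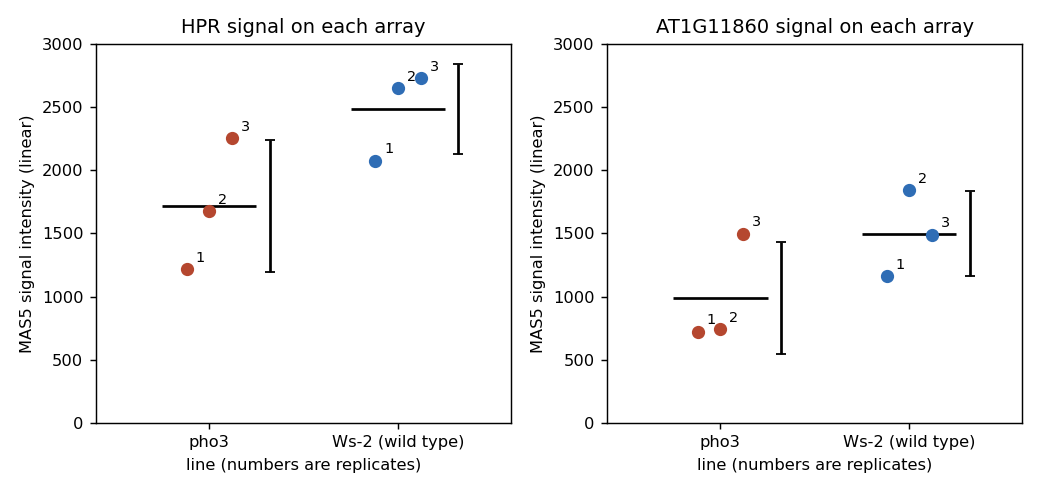
MAS5 signal intensity (linear) of HPR and of AT1G11860 on each array, with pho3 left and Ws-2 right. Points are arrays numbered by replicate, horizontal lines are group means and bars span 1 SD on each side of the mean (n = 3). pho3 replicate 3 (2256 for HPR, 1499 for AT1G11860) overlaps the Ws-2 arrays in both panels, and Ws-2 replicate 1 (2077 and 1162) is the lowest Ws-2 array.

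Neither of the 2 genes passed the adjusted test with all 6 arrays, against a background of 0% of 13983 probe sets called lower (0 at an adjusted p under 0.05 in limma, where 4.85% were lower at an unadjusted p under 0.05). Both genes lay in the lower part of the distribution of differences: 7.39% of the probe sets tested had a lower difference than HPR and 5.13% a lower one than AT1G11860. Groups that did not overlap were found for 5.81% of probe sets in the lower direction and 5.31% in the higher direction, and neither gene was among them. Within each array both genes were bright. HPR lay between the 98.8th and the 99.7th percentile of the 22746 probe sets on the pho3 arrays and between the 99.6th and the 99.8th on the Ws-2 arrays. AT1G11860 lay between the 97.0th and 99.1st percentile in pho3 and between the 98.6th and 99.3rd in Ws-2.

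The arrays used decided the call. Without the array labelled Ws-2 replicate 1, the log2 difference was -0.69 for HPR (SE 0.25, limma's adjusted p = 0.117) and -0.83 for AT1G11860 (SE 0.33, limma's adjusted p = 0.140). Neither passed, and 0.837% of probe sets were called lower. Without both that array and pho3 replicate 3, HPR differed by -0.91 (SE 0.16, limma's adjusted p = 0.00880) and AT1G11860 by -1.18 (SE 0.13, limma's adjusted p = 0.00248). These 2 arrays were picked from the same values, because they deviated from their labelled groups, so the p-values of this fit overstate the evidence. Both genes were then called lower, as were 16.5% of all probe sets, and HPR stood at 0.531 and AT1G11860 at 0.442 of the Ws-2 geometric mean. With limma's array weights both were called lower too, at -0.77 (adjusted p = 0.0284) and -1.03 (adjusted p = 0.0259), among 14.5% of probe sets. Those weights were 0.367 for Ws-2 replicate 1 and 0.443 for pho3 replicate 3, against 1.09 to 2.204 for the others, so both calls depend on giving little or no weight to 2 arrays that deviate from their labelled groups. Leaving out single arrays moved HPR to -0.34 without pho3 replicate 1 and AT1G11860 to -1.01 without pho3 replicate 3, with no call in either case.

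The second question was whether the 2 genes differed by the same amount. The log2 signal of HPR minus that of AT1G11860 came to 0.75, 1.17 and 0.59 for pho3 and 0.84, 0.53 and 0.87 for Ws-2. The level of such a difference depends on the probes, and its change between arrays is free of any scaling of whole arrays. It averaged 0.84 ± 0.30 for pho3 and 0.75 ± 0.19 for Ws-2 (SD, n = 3 each), so the difference between the lines was 0.093 higher for HPR than for AT1G11860, with exact permutation p = 0.8 (two-sided, adjusted p = 0.8 over 4 such differences). With 3 arrays in each group no exact p can be under 0.1. The groups overlapped, and the sign turned without pho3 replicate 2 (-0.074) and without Ws-2 replicate 2 (-0.016). The most uneven array was pho3 replicate 2, where HPR was 1.38-fold above pho3 replicate 1 and AT1G11860 1.03-fold.

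The rest of the pathway was read from a list of 38 photorespiration genes, of which 8, including HPR and AT1G11860, had a probe set of their own, and all 8 were tested. The annotation gives most of these loci no name, and the roles that follow are background knowledge of the Arabidopsis loci. In pho3 the mean was lower for 5 of the 8 genes and higher for 3, where 50.2% of all probe sets tested were lower. The count was 6 lower and 2 higher with each array centred on its median or without pho3 replicate 2, because AT1G79870 lay next to 0. The median log2 difference of the 8 was -0.57, while that of all probe sets tested was -0.0015. None passed limma's adjusted test, and the groups overlapped for all 8. Leaving out pho3 replicate 1 moved the median to -0.36.

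The H protein of glycine decarboxylase, which carries the glycine-derived aminomethyl group to the T protein, is encoded by several genes, and 2 of them were measured. AT1G32470 read 503, 591 and 943 in pho3 and 823, 1226 and 919 in Ws-2, a log2 difference of -0.58 (SE 0.27, limma's adjusted p = 0.375). It followed the T subunit gene closely. The log2 signal of AT1G11860 minus that of AT1G32470 was 0.33 to 0.67 in pho3 and 0.50 to 0.70 in Ws-2, a difference of -0.087 between the lines (exact permutation p = 0.5, two-sided, adjusted p = 0.667 over 4). The other H protein gene, AT2G35120, read 123, 101 and 111 in pho3 and 111, 84.4 and 97.4 in Ws-2, with a difference of 0.20 (SE 0.16, limma's adjusted p = 0.482). Its mean was higher in pho3, where that of the T subunit gene was lower, but the difference was 0.12 without pho3 replicate 1 and 0.099 without Ws-2 replicate 2. The log2 signal of AT1G11860 minus that of AT2G35120 came to 2.55, 2.89 and 3.75 on the pho3 arrays against 3.39, 4.45 and 3.94 on the Ws-2 arrays, lower in pho3 by 0.86 on average (exact permutation p = 0.2, two-sided, adjusted p = 0.4 over 4). These comparisons within the pathway, other than that of HPR with AT1G11860, were chosen after the values had been seen.

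The hydroxypyruvate step has another enzyme too. AT1G79870 encodes the cytosolic hydroxypyruvate reductase, a second enzyme for the reaction of HPR outside the peroxisome. It read 371, 399 and 390 in pho3 and 385, 380 and 378 in Ws-2, all 6 arrays lying within a narrow band. Its log2 difference was 0.020 (SE 0.12, 95% interval -0.27 to 0.31, limma's adjusted p = 0.934). It was -0.0086 after median centring, -0.0030 without pho3 replicate 2 and 0.049 without pho3 replicate 1, so its direction was not settled. The log2 signal of HPR minus that of AT1G79870 was 1.71, 2.07 and 2.53 in pho3 and 2.43, 2.80 and 2.85 in Ws-2, where pho3 replicate 3 again overlapped Ws-2 replicate 1. It was lower in pho3 by 0.59 on average (exact permutation p = 0.2, two-sided, adjusted p = 0.4 over 4), and by 0.93 without Ws-2 replicate 1 and pho3 replicate 3.

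Downstream of HPR, AT1G80380 encodes glycerate kinase, the last enzyme of the pathway. It read 364, 265 and 564 in pho3 and 396, 632 and 736 in Ws-2, a log2 difference of -0.59 (SE 0.34, limma's adjusted p = 0.388). The signal was lower in pho3 in 8 of 9 pairs. The size of the difference rested in part on 1 array, being -0.33 without pho3 replicate 2.

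Transporters of the chloroplast envelope move glycolate out and glycerate in. On the log2 scale LrgB had the widest range of the 8 genes. LrgB (AT1G32080), the plastidic glycolate and glycerate translocator, read 336, 321 and 1005 in pho3 and 725, 1383 and 1222 in Ws-2. Replicates 1 and 2 of pho3 lay below every Ws-2 array and replicate 3 lay among them. The log2 difference was -1.17 (SE 0.48, limma's adjusted p = 0.375), the most negative of the 8 genes. AT4G22840, which encodes the glycolate transporter BASS6, read 172, 139 and 116 in pho3 and 125, 104 and 102 in Ws-2. Its mean was higher in pho3 by 0.35 (SE 0.19, limma's adjusted p = 0.376), with 8 of 9 pairs higher, and by 0.21 without pho3 replicate 1.

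**Figure D2:**
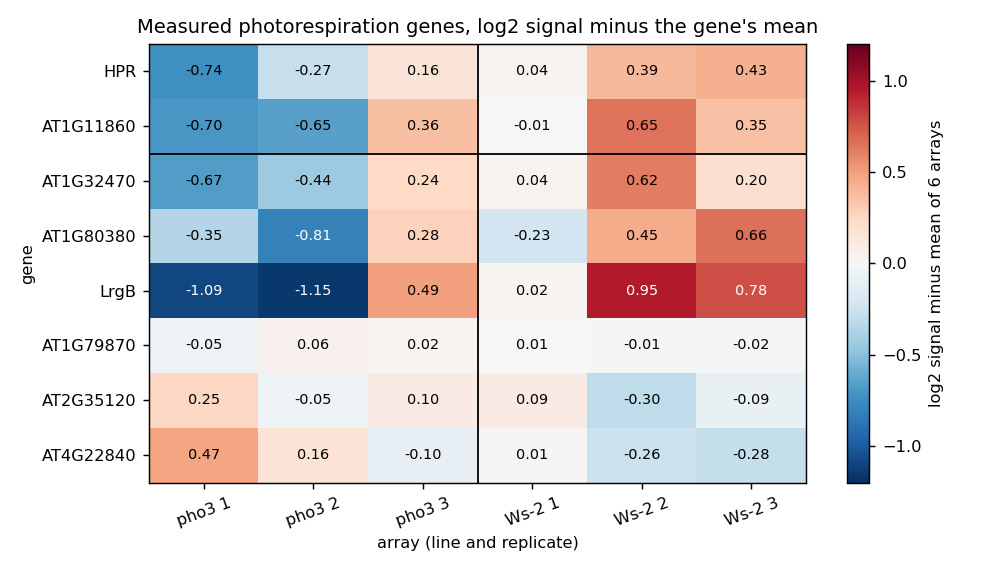
Log2 signal of the 8 measured photorespiration genes (rows) on each array (columns, pho3 left of Ws-2), minus the mean of the gene over the 6 arrays. HPR and AT1G11860 stand above the line. HPR runs between -0.74 on pho3 replicate 1 and 0.43 on Ws-2 replicate 3, LrgB between -1.15 and 0.95, AT1G79870 stays between -0.05 and 0.06, and AT4G22840 runs the other way, 0.47 on pho3 replicate 1 and -0.28 on Ws-2 replicate 3.

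Without Ws-2 replicate 1 the list median was -0.70 and 0 of the 8 genes were called, where 0.837% of all probe sets were called lower and 4.61% higher. Without these 2 arrays it was -0.94, and 5 genes were called lower (HPR, AT1G11860, AT1G32470, AT1G80380 and LrgB, where 16.5% of all probe sets were) and 1 higher (AT4G22840, where 18.2% were). Here too the 2 arrays left out had been picked after the values were seen. In that fit LrgB differed by -1.99 (SE 0.12, limma's adjusted p = 0.000803), AT1G80380 by -1.13, AT1G32470 by -0.96 and AT4G22840 by 0.59 (SE 0.16, limma's adjusted p = 0.0360). AT1G79870 was at 0.022 and AT2G35120 was at 0.30, neither called. With all 6 arrays, quantile normalization gave -0.42 for HPR and -0.56 for AT1G11860 and kept the direction of all 8 genes, while median centring turned that of AT1G79870.

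**Figure D3:**
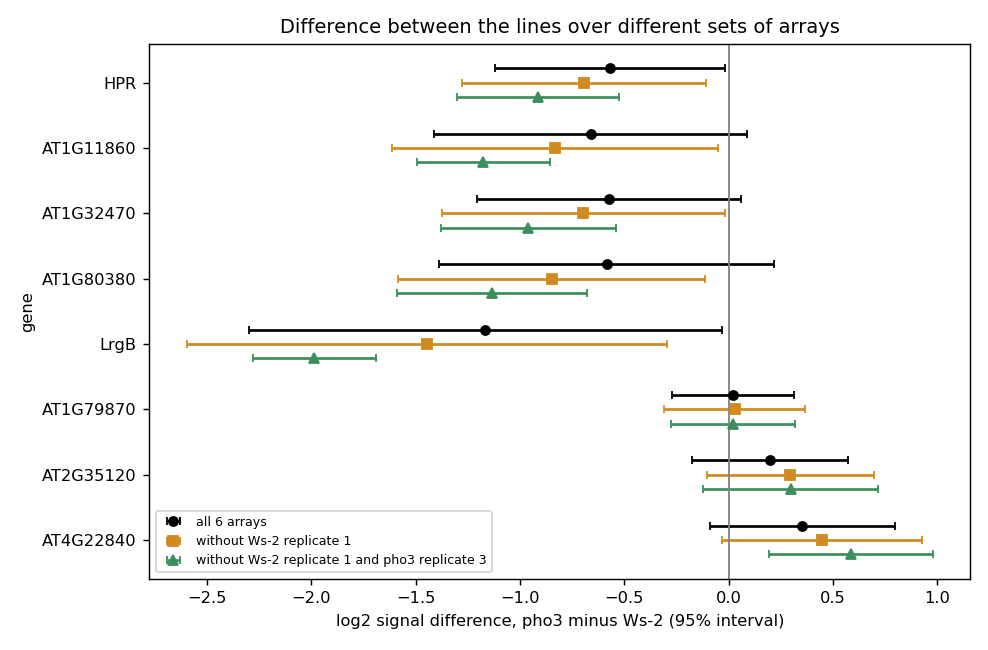
Difference in log2 signal, pho3 minus Ws-2, of the 8 measured photorespiration genes with its 95% interval from limma. Black circles use all 6 arrays, orange squares leave out Ws-2 replicate 1, and green triangles leave out that array and pho3 replicate 3. HPR lies at -0.57, -0.69 and -0.91 and AT1G11860 at -0.66, -0.83 and -1.18, while AT1G79870 lies between 0.020 and 0.028 in all 3.

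Most of the few measured genes of related leaf pathways had lower means in pho3 too, where 50.2% of all probe sets tested had a lower one. All 3 measured of 22 Calvin cycle genes had lower means in pho3, with a median of -0.53 and none called. The differences were -0.60 for SBPASE, a sedoheptulose bisphosphatase, -0.53 for PRK, which makes the substrate of rubisco, and -0.23 for RCA, which activates rubisco. That of SBPASE was -0.38 without pho3 replicate 1 and -0.91 without pho3 replicate 3. Of the serine and folate-linked carbon genes, 4 of 17 were measured, with 3 lower, 1 higher (AT2G38660, 0.15), a median of -0.27 and none called. The largest of these differences was -0.79 for AT4G17360, which encodes a formyltetrahydrofolate deformylase and read 52.6, 42.5 and 90.5 in pho3 and 71.4, 132 and 111 in Ws-2. The other deformylase gene, AT5G47435, differed by -0.36, by -0.20 without pho3 replicate 1 and by -0.61 without pho3 replicate 3. From background knowledge these mitochondrial enzymes keep the folate pool in balance for the conversion of glycine to serine.

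The genes with the profile most like each of the 2 were named by Pearson's r of log2 signal over the 6 arrays. This is a description over 6 arrays, with no test, and a high r was common: 8.55% of the other 13982 probe sets had an r above 0.9 with HPR and 11.4% with AT1G11860. For HPR the first 5 were AT5G66000 (r = 0.996), AT3G45210 (0.995), TSC10A (0.994), AT2G17240 (0.992) and AT1G75180 (0.991). TSC10A is a reductase of sphingolipid synthesis, and it read 51.2, 70.6 and 90.3 in pho3 and 79.2, 103 and 111 in Ws-2. For AT1G11860 they were AT4G21870 (r = 0.999), AT2G20670 (0.998), AT5G42760 (0.997), AT5G15390 (0.997) and AT1G22850 (0.997). AT2G20670 had the largest difference of these, with 17.3, 16.0 and 100.4 in pho3 against 56.1, 160 and 89.7 in Ws-2. None of the 5 genes was common to both.

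Of the pathway genes, AT1G11860 had an r of 0.994 with SBPASE, 0.991 with LrgB, 0.990 with RCA and 0.983 with AT1G32470, placing 28th, 55th, 63rd and 162nd of 13982. Its r with HPR was 0.923, which placed HPR only 1237th. HPR had its highest r among these genes with SBPASE (0.953) and PRK (0.951), which placed only 392nd and 435th of 13982. Its r with the transporter gene AT4G22840 was -0.998, and 13980 of the 13982 other probe sets had a higher one. The profiles of HPR and AT4G22840 were therefore close to mirror images over the 6 arrays, although the range of AT4G22840, from 102 to 172, was narrower than that of HPR. A strongly negative r was common too: AT4G22840 had -0.920 with AT1G11860, where 13156 of the 13982 had a higher one and many a lower one.

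Some technical and cell type values moved with the 2 genes. The first actin control set, whose ratio of 3-prime to 5-prime signal is higher when RNA is degraded, gave ratios of 4.75, 5.24 and 3.46 for pho3 and 4.23, 2.18 and 2.26 for Ws-2 (exact permutation p = 0.2, two-sided, adjusted p = 0.9 over 6 control ratios). The 3 arrays with the highest ratios were those with the lowest HPR and AT1G11860 signals. The other 5 ratios, of a second actin set and of GAPDH and ubiquitin, differed between the lines by -0.057 to 0.053 on the log2 scale. The summed signal of the 4 light-reaction markers was 5952 to 7495 in pho3 and 6818 to 8699 in Ws-2. Their log2 differences were -0.25 for LHCB4.1, -0.32 for LHCB4.2, -0.33 for PSAN and -0.03 for LHCB4.3, with a median of -0.28 and none called. LHCB4.3 did not move with the 2 genes, at 220, 385 and 493 in pho3 and 383, 506 and 230 in Ws-2. The guard cell list was measured by FMA, a transcription factor of guard cell fate, and by STOMAGEN, a peptide gene that promotes stomata and is known to be expressed in mesophyll. Their summed signal was 55.5 to 93.2 in pho3 and 89.5 to 124 in Ws-2, with no marker at 0. The part of these values in the differences of HPR and AT1G11860 was not tested. In leaf RNA, fewer green cells and less of a transcript per cell cannot be told apart.

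**Figure D4:**
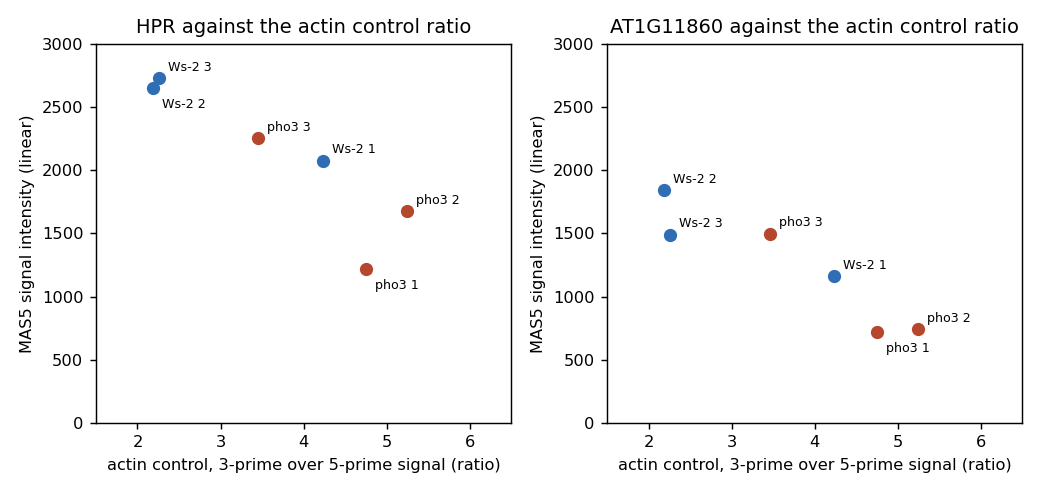
MAS5 signal (linear) of HPR and AT1G11860 against the ratio of 3-prime to 5-prime signal of the first actin control set, with a labelled point for each array (red pho3, blue Ws-2). Wild-type replicates 2 and 3 combine the lowest ratios (2.18 and 2.26) with HPR signals of 2650 and 2730, and pho3 replicates 1 and 2 combine the highest (4.75 and 5.24) with 1216 and 1678. Wild-type replicate 1 lies at 4.23 with 2077 and pho3 replicate 3 at 3.46 with 2256. The second actin set, not drawn, gave ratios of 1.79 to 2.11.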

How the data were processed

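For every array the deposited table gives each probe set 1 intensity value on a linear scale. MAS5 made it, per the submitters' processing notes, without a version. The 2% trimmed mean was 100.0 on every array. Detection calls were not used. Arrays were grouped by their titles. The labels do not say whether replicates were separate plants, so the spread behind the p-values may be technical. Precision is limited by the number of arrays.

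The log2 of each signal was taken, without a pseudocount. Of 22746 probe sets, 13983 reached the 40th percentile of an array (26.2 to 28.4) on 3 or more arrays. They were tested in limma 3.58.1 under R 4.3.3 with lmFit and a trended eBayes, two-sided, with Benjamini-Hochberg adjustment and a threshold of 0.05. The limma fit was tested on simulated data with independent noise on each array. No simulated array resembled the other group, so that test cannot show how the fit behaves on such arrays. Differences between 2 genes were tested by exact permutation (python 3.11.15). The genes, lists and rules were chosen with earlier results of these data known. Named were HPR and AT1G11860, every tested photorespiration gene, up to 3 genes each of 2 related lists and the 5 most similar profiles. Alternatives were median centring, quantile normalization, other filters and priors, a pseudocount of 16, array weights, the replicate block and leaving out each array. Leaving out 2 arrays together was added after the data had been seen. A planned promoter motif search was not run. The labels do not say whether replicate numbers pair the arrays. Correlations of deviations from the group mean were 0.39, -0.27 and 0.43 for same-numbered arrays and -0.62 to 0.52 for others. They cannot settle it, since deviations within a group of 3 depend on one another.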

Additional observations from a re-analysis of the deposited data

How the results depend on the processing

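Both genes kept a lower mean in pho3 under all 16 alternatives. The other filters, the other priors and the replicate block cannot change the difference itself, only its SE and p, so their direction was fixed in advance. HPR and AT1G11860 were called with array weights (-0.77 and -1.03) and without the pair of Ws-2 replicate 1 and pho3 replicate 3 (-0.91 and -1.18), and under none of the other 14, where limma's adjusted p was 0.117 to 0.733 for HPR and 0.140 to 0.733 for AT1G11860. Leaving out 1 array gave -0.79 to -0.34 for HPR and -1.01 to -0.48 for AT1G11860. The replicate block uses the shared replicate numbers, which the labels do not describe as pairs. With it the adjusted p in limma was 0.192 for HPR (-0.57) and 0.214 for AT1G11860 (-0.66), and 0 probe sets were called. The SE was 0.13 for HPR and 0.25 for AT1G11860 with the block, and 0.23 and 0.32 without it. Over all probe sets, array weights called 2237 higher and 2026 lower, and leaving out both arrays called 2547 and 2305. Leaving out 1 array gave 0 to 644 higher and 0 to 117 lower, all of the calls without Ws-2 replicate 1. Without both arrays the photorespiration median was -0.94 and the Calvin cycle median -0.97. The difference between HPR and AT1G11860 ran from -0.074 without pho3 replicate 2 to 0.22 without pho3 replicate 3 when 1 array was left out, and was -0.016 without Ws-2 replicate 2. The cause of these changes was not tested. The filter and the variance prior moved no call, but the 95% interval of HPR spanned 0 without the filter and without the trended prior.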
